A study of Mus musculus with 4 samples.

Results

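Posterior Hox-A genes were followed across mouse embryonic stem (ES) cell lines on single-colour Agilent arrays. The set comprises the protein-coding genes Hoxa6, Hoxa7, Hoxa9, Hoxa10, Hoxa11 and Hoxa13 and the noncoding RNA Hoxa11os. They were chosen by name, with earlier results of these data known, so the choice was not blind to their rise. Taken were all probes outside the controls that the array annotation assigns to one of their RefSeq transcripts. These are 9 of 55681 probes and 7 of the 20284 genes that RefSeq names on the array, and all 9 had a value on every array. Hoxa9 and Hoxa13 have 2 probes each, which are described apart.

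The study compared 4 lines, with 1 array for each. Parental ES cells are the EB3 line, without a transgene of the study. Nup98-HoxA9 ES clone #1 and clone #9 were made from these cells and stably express a FLAG-tagged fusion of the FG-repeat N-terminus of human Nup98, a nuclear pore protein, with the C-terminus of HoxA9, which holds the homeodomain. HoxA9-Ct ES is a stable line expressing the HoxA9 C-terminus without Nup98. The transgenes were integrated with the Tol2 transposon under hygromycin B selection, and all lines were kept in medium with LIF. Each transgenic line grew from a picked colony, so the only group with replicates is Nup98-HoxA9 ES, with 1 sample each of HoxA9-Ct ES and parental ES, and a p-value measures no more than the spread between the clones.

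Hox genes encode homeodomain transcription factors that set position along the body axis, and they lie in 4 clusters in which gene order follows the order of expression. Genes at the 5' end of the Hox-A cluster are switched on last and act furthest toward the tail and in the distal limb and the urogenital tract. In ES cells the clusters are normally held silent by Polycomb complexes, while in blood progenitors and in leukaemias with NUP98 or MLL fusions Hoxa7, Hoxa9 and Hoxa10 are well-known expressed members.

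The promoters of Hoxa6, Hoxa7, Hoxa10 and Hoxa11, which rose in both clones, and of Hoxa13, which was not detected, are printed here. The values can thus be read beside a sequence in front of each of these genes. Which of the Hoxa10 starts belongs to the transcript read by its probe was not examined. Hoxa9 and Hoxa11os also rose, but their windows and the downstream start of Hoxa10 are described below without being printed. The printed windows are the 250 bases upstream of the RefSeq start on GRCm38.p6, all on the minus strand. Capitals mark a CCAAT box on either strand (ATTGG where it is on the opposite strand).
Hoxa6 promoter, chr6:52208673-52208922: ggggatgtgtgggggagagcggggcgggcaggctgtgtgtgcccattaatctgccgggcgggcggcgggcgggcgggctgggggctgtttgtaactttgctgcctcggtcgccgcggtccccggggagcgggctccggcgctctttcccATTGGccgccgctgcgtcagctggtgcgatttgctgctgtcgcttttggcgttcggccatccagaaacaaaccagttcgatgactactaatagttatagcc
Hoxa7 promoter, chr6:52218574-52218823: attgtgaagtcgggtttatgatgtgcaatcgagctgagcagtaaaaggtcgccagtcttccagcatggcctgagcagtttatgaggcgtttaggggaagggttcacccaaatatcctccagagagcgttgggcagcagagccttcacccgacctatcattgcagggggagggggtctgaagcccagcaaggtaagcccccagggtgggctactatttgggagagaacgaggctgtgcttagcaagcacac
Hoxa10 promoter of the upstream start, chr6:52240855-52241104: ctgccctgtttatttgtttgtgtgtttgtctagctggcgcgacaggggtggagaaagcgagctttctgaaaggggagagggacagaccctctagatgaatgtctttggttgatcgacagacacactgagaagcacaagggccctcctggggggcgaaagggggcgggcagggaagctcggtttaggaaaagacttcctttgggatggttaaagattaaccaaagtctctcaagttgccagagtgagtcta
Hoxa11 promoter, chr6:52245811-52246060: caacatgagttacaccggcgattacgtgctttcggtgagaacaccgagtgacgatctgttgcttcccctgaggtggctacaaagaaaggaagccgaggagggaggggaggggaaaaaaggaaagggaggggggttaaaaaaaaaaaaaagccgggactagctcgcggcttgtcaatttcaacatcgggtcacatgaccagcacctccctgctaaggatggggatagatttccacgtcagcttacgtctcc
Hoxa13 promoter, chr6:52260881-52261130: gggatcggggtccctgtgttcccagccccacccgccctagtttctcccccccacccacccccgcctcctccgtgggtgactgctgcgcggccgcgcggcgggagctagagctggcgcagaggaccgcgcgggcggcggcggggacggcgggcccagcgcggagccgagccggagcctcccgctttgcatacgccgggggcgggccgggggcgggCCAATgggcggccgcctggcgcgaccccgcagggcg

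RefSeq starts gave 8 such windows for the 7 genes, with a second, downstream start for Hoxa10. Their share of G and C ran from 49.6% at Hoxa9 to 80.0% at Hoxa13, against a median of 52.4% over 32851 mouse promoters. The observed over expected frequency of CpG was 0.266 at Hoxa9, 0.386 at Hoxa7 and 0.458 at the upstream start of Hoxa10. It was 0.792 at Hoxa11, 0.875 at Hoxa13, 0.913 at the downstream start of Hoxa10, 0.933 at Hoxa6 and 1.08 at Hoxa11os, where the median promoter had 0.373. Among the members with large ratios in the clones, the window of Hoxa7 thus lay near the median CpG frequency and that of Hoxa11 well above it. The composite Hox-Pbx letters TGATTTAT were in 0 of the 8 windows on either strand and in 0.837% of all promoters. A CCAAT box was in 3 windows (Hoxa6, the downstream start of Hoxa10, and Hoxa13) and in 33.8% of all promoters. The letters TATAAA were in 2 windows (the downstream start of Hoxa10 and Hoxa11os) and in 12.4% of all promoters, and the Meis letters TGACAG in 1 window (Hoxa11os) and in 15.9%. No matches of different motifs overlapped in these windows.

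The measure is the processed signal, a spot's intensity after background subtraction, and the scanner software marks each spot as well above background or not. A gene dim in 1 line has no more than an upper limit there, so its fold is given as a lower bound. Lines were tested with limma, a linear model fitted to all probes at once. The 75th percentile of the processed signal, to which each array was scaled, lay between 209 and 253, and 49.9% to 53.0% of spots were well above background. No spot was saturated. The lowest signal called well above background lay between -4.62 and -4.23 on the scaled log2 scale. Of the ES cell markers, 10 of 10, Pou5f1, Nanog and Sox2 among them, were well above background on each array, and limma called 0 of them in either comparison with parental ES.

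Parental ES cells showed little signal from the posterior Hox-A genes. Only Hoxa7 and Hoxa11os were well above background there, and the probes of Hoxa6, Hoxa9, Hoxa10, Hoxa11 and Hoxa13 were not. HoxA9-Ct ES gave the same division. In both Nup98-HoxA9 ES clones all members but Hoxa13 were well above background, and the 7 probes of those 6 genes rose more than 10-fold over parental ES in each clone, with 14.2-fold as the lowest bound of a member dim in parental ES. Over the whole array 50 of 55562 probes (0.0900%) did so.

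**Figure D1:**
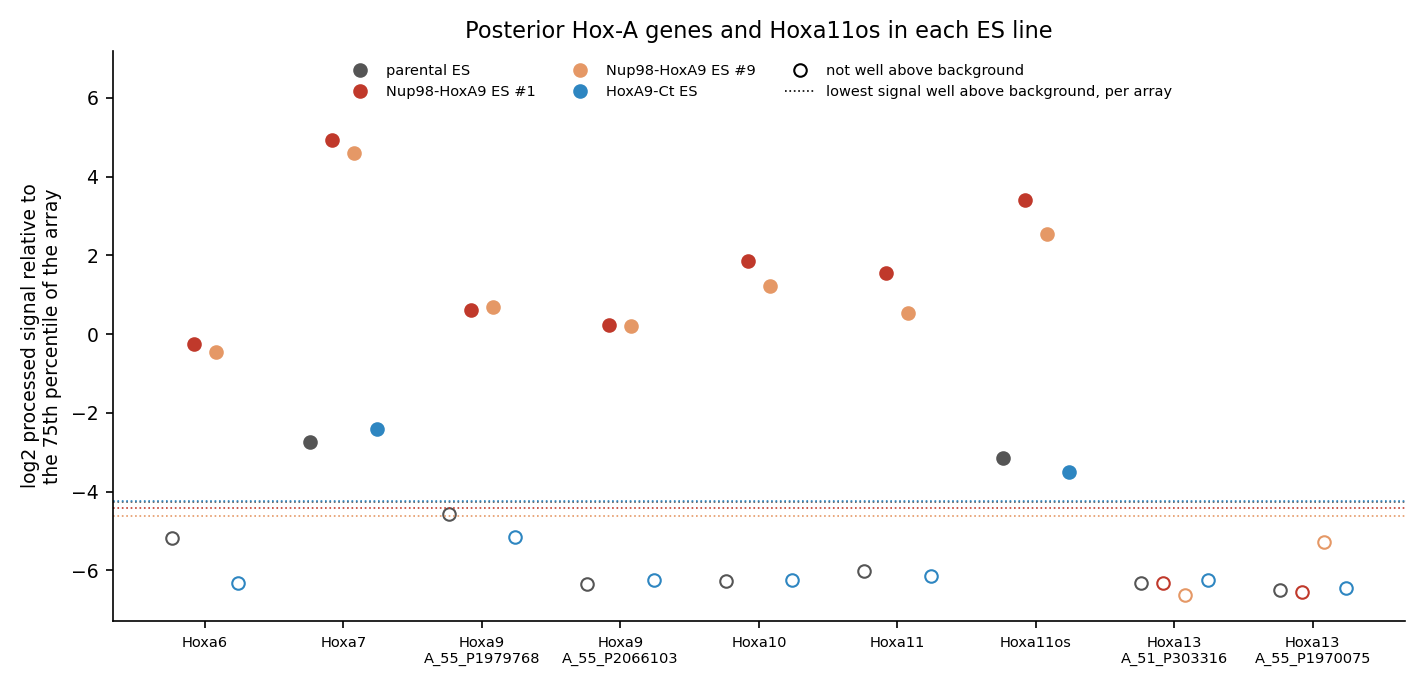
Scaled log2 processed signal of the 9 probes in each line, 1 array per line, with filled points well above background and dotted lines at the lowest such signal of each array. Both clones stand above parental and HoxA9-Ct ES at 7 probes, and no line passes the limit at either Hoxa13 probe.

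Hoxa6 and Hoxa7 encode homeodomain factors of the central part of the cluster, with roles in the thoracic skeleton. Hoxa7 gave a processed signal of 34.5 in the parental line, 6759 in clone #1, 6181 in clone #9 and 39.1 in the HoxA9-Ct line. Hoxa7 was thus detected in every line, and the clones lay far above the other lines. It rose 181-fold in the mean of the clones (202-fold and 162-fold), a log2 ratio of 7.50 ± 0.22 (SD, n = 2 clones), with a limma adjusted p of 3.13e-37. This mean ratio was the highest among the 25529 probes that passed background in all 4 lines. Hoxa6 gave 6.35 in parental ES, 185 in each clone and 2.62 in HoxA9-Ct ES. Neither line without the fusion was well above background, and the clones lay close together. Since parental ES had only a bound, the clones exceeded it by at least 15.1-fold, and the measured log2 ratio of 4.82 ± 0.13 (SD, n = 2) had a limma adjusted p of 6.58e-15.

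Hoxa9, whose product drives self-renewal of blood progenitors, was read by 2 probes to the same transcript. Probe A_55_P1979768 gave 9.61 in the parental cells, 341 in clone #1, 409 in clone #9 and 5.90 in the HoxA9-Ct line. Probe A_55_P2066103 gave 2.82, 259, 290 and 2.73 in the same order. At both probes the clones were well above background and the other lines were not. The bound was at least 30.6-fold over parental ES at the former and at least 22.4-fold at the latter. Measured log2 ratios were 5.23 ± 0.05 and 6.55 ± 0.01 (SD, n = 2), each against a parental signal that is no more than a bound. Both clones share that parental signal, so the SD holds none of its error. The limma adjusted p was 9.00e-18 and 3.23e-28. The transgenes hold the C-terminal part of HoxA9, and the position of these probes in the transcript is not given in the sources used here, so endogenous and transgene RNA cannot be told apart in the clones. HoxA9-Ct ES carries that part too, and neither probe was well above background in it.

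Hoxa10 and Hoxa11 belong to the Abdominal-B type of Hox genes, with roles in the uterus, kidney and limb. The Hoxa10 signal of the parental line was 2.94, that of clone #1 was 801, that of clone #9 was 595 and that of the HoxA9-Ct line was 2.77. The clones exceeded parental ES by at least 56.4-fold, with a measured log2 ratio of 7.82 ± 0.44 (SD, n = 2) and a limma adjusted p of 2.00e-40. Hoxa11, the only member printed in 10 spots on each array, had a mean signal of 3.69 in the parental line, 652 in clone #1, 368 in clone #9 and 2.95 in the HoxA9-Ct line. The clones exceeded parental ES by at least 40.0-fold, with a log2 ratio of 7.07 ± 0.72 (SD, n = 2) and a limma adjusted p of 5.44e-33.

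The 10 spots of Hoxa11 give its technical error within an array. They ran from 632 to 679 in clone #1 and from 346 to 391 in clone #9, an SD of 0.032 and 0.055 on the log2 scale. No spot of clone #9 reached the lowest of clone #1. In parental ES they ran from 2.77 to 7.04 with an SD of 0.43, and 0 of 10 were well above background. In HoxA9-Ct ES, 1 spot was marked as an outlier and left out, and the other 9 ran from 2.56 to 3.89. Such spots share an RNA sample and say nothing of the spread between cultures.

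**Figure D2:**
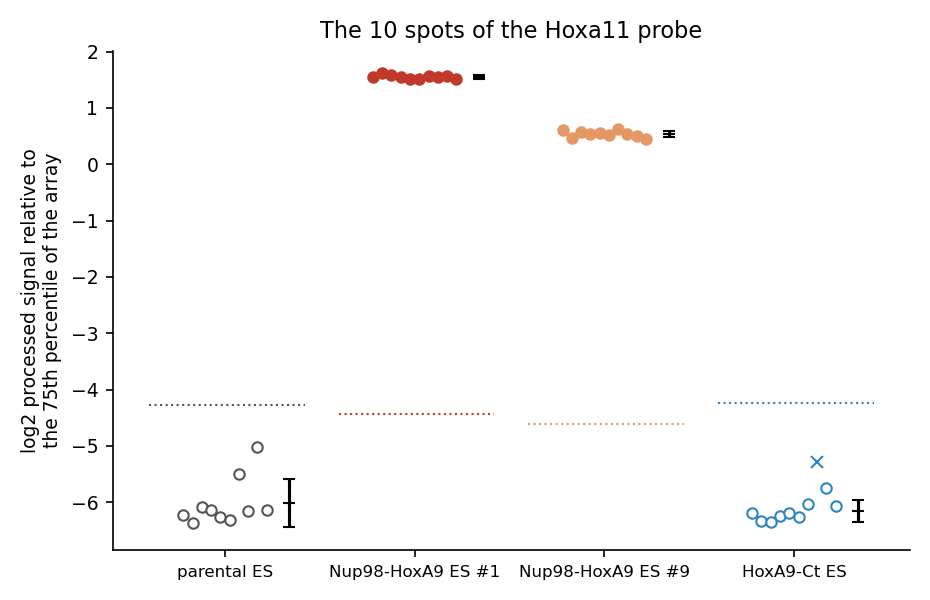
Scaled log2 processed signal of each Hoxa11 spot in the 4 lines, with the mean and SD over spots in black, dotted lines at the lowest signal well above background, open points where the spots are not well above it and a cross for the spot left out. Clone #1 and clone #9 do not overlap, and the spots of parental and HoxA9-Ct ES lie below the limit.

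Hoxa11os is transcribed from the strand opposite to Hoxa11 and overlaps it. It is a noncoding RNA known from the developing limb and the uterus, where it is often found apart from Hoxa11 mRNA. Its signal was 25.9 in the parental line, 2354 in clone #1, 1470 in clone #9 and 18.5 in the HoxA9-Ct line, each well above background. Hoxa11os rose 69.6-fold in the mean of the clones (93.9-fold and 51.5-fold), a log2 ratio of 6.12 ± 0.61 (SD, n = 2) with a limma adjusted p of 1.37e-24. Sense and antisense probes thus moved in the same direction in the clones, and in parental ES the antisense probe was detected where the sense probe was not.

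Hoxa13, the last gene of the cluster and a factor of the digits and the hindgut, stayed below the background limit in all lines at both probes. Probe A_51_P303316 gave 2.88 in the parental cells, 2.79 in clone #1, 2.57 in clone #9 and 2.75 in the HoxA9-Ct line. Probe A_55_P1970075 gave 2.53, 2.36, 6.50 and 2.39, so its highest value, in clone #9, was still below the limit. No fold is given, and the limma adjusted p was 1.00 at both.

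The 6 genes that rose had measured log2 ratios between 4.82 and 7.82 in the mean of the clones. Over all 7 genes, each read at its brightest probe, the median was 6.12, and it was 5.32 with genes dim in parental ES at their lower bound and Hoxa13 at 0. The median over all probes was -0.18. At a Benjamini-Hochberg adjusted p of 0.05 over all probes, limma called 7 of the 9 probes higher in the clones than in the parental line, as it did 434 of 55562 probes (0.781%). The fit has 1 residual degree of freedom, gives every probe the same standard error of 0.56, and assumes that parental and HoxA9-Ct ES vary like the clones. Its prior degrees of freedom, the weight given to a spread shared by all probes, were infinite. Every probe was thus tested against 1 pooled SD of 0.454, and its own spread between the clones did not enter its p. A measured rise of 3.68-fold at Gata4 was not called, and one of 3.74-fold at Hoxb13, dim in parental ES, was. Smaller changes could not be called, so a gene that limma did not call may still differ. With quantile normalization, or with no probes but those well above background on at least 1 array, limma called 0 probes on the array (members at adjusted p of 0.422 to 0.425 and 0.262 to 0.269, all 7 at an unadjusted p under 0.05), and with the normexp background correction 2 of the 9 probes, not 7, passed 10-fold in both clones.

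Against HoxA9-Ct ES the picture was the same, with the clone arrays shared between the comparisons. All 7 exceeded HoxA9-Ct ES by more than 10-fold in each clone, as did 46 probes of the array (0.0828%), and limma called all 7 higher, among 374 probes (0.673%). These limma calls too were lost with the filter on dim probes (adjusted p of 0.308 at the members) and with quantile normalization (0.352 to 0.365). Hoxa7 was 146-fold and Hoxa11os 88.6-fold higher in the mean of the clones than in HoxA9-Ct ES. The other members had bounds from at least 14.7-fold at Hoxa6 to at least 54.8-fold at Hoxa10.

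HoxA9-Ct ES set against parental ES asks whether the HoxA9 C-terminus alone goes with a change of these genes. Only Hoxa7 and Hoxa11os could be measured in both lines. The log2 ratio was 0.31 for Hoxa7 and -0.35 for Hoxa11os, each with a limma standard error of 0.64 and an adjusted p of 1.00. The limma fit called 0 of the 9 probes, and 225 of 55562 over the array (0.405%). At an unadjusted p under 0.05 it had 0 of the 9, against 2 with quantile normalization, 1 with the filter on dim probes and 1 with trend and robust on. The median over the member genes was -0.13, beside 0.06 over all probes, but 5 of the 7 genes were dim in both lines, the median gene Hoxa11 among them, so it is a difference between signals below background. A change of more than 2-fold in either direction was shown by 1 of the 9 probes, Hoxa6, which was dim in both lines and gets no fold, and by 6.07% of all probes. Each of these lines is 1 array, and the spread between the clones stands in for its error. Even the log2 ratio of 2.34 at Cdx2, dim in both lines, was not called, so smaller changes could not be.

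The difference between the clones varied along the cluster. Clone #9 minus clone #1 was -0.19 on the log2 scale at Hoxa6, -0.32 at Hoxa7, and 0.08 and -0.02 at the Hoxa9 probes. It was -0.62 at Hoxa10, -1.01 at Hoxa11 and -0.87 at Hoxa11os, so those members had the lower signal in clone #9 while Hoxa6, Hoxa7 and Hoxa9 were closer between the clones. The 26871 probes that passed background in both clones had a median of -0.08 and a central 95% from -0.71 to 1.09, and Hoxa11 and Hoxa11os lay outside it. Hoxa2, Hoxa3, Hoxa4 and Hoxa5 lay between -0.16 and 0.19. A lower signal in clone #9 was not confined to Hox-A. It was also seen at Hoxc6 (-2.53), Hoxb7 (-1.30), Hoxb6 (-1.15) and Hoxb9 (-1.06). Hoxc9 (-0.17) and Hoxc13 (-0.07) were close between the clones, and Hoxb13 (0.80) and Hoxd13 (1.01) were higher in clone #9. With 1 array per clone the difference has no replicate and no test.

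**Figure D3:**
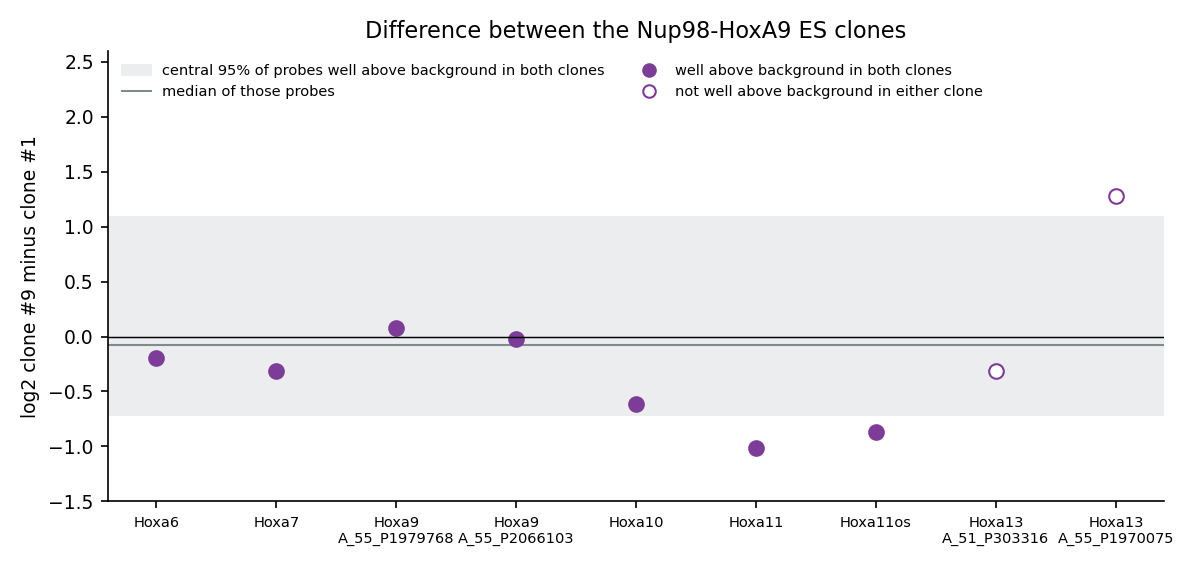
Log2 signal of clone #9 minus clone #1 at the 9 probes, with the grey band and line giving the central 95% and the median of the 26871 probes that passed background in both clones. Hoxa10, Hoxa11 and Hoxa11os lie lowest, and the open Hoxa13 points are differences between signals that are not well above background.

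The anterior neighbours of the members rose as well. Of Hoxa2, Hoxa3, Hoxa4 and Hoxa5, which act in the hindbrain and neck, 4 of 4 were well above background in both clones and called higher by limma. All 4 were dim in parental ES, so that their folds are bounds. Hoxa3, a factor of the thymus and parathyroid, was at least 131-fold higher in the mean of the clones, and Hoxa5 at least 26.2-fold. The bound was at least 9.01-fold at Hoxa4 and at least 4.57-fold at Hoxa2, under the 10-fold that their measured ratios pass. Their median measured log2 ratio was 6.13 in clone #1 and 6.21 in clone #9. In HoxA9-Ct ES 0 of 4 were called.

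Genes that flank the cluster did not pass the test. Of Cbx3, Snx10, Skap2, Evx1, Hibadh, Tax1bp1 and Jazf1, limma called 0 of 7 in either direction. Skap2, beside the anterior end, had log2 ratios of 0.89 and 0.83, smaller than the changes limma could call. Evx1, a homeobox gene beyond Hoxa13, had -1.29 and -0.94, and it was -0.95 in HoxA9-Ct ES. Evx1 was not well above background in clone #1, so the first of these ratios rests on a dim signal. Jazf1 was dim in every line. Of the noncoding RNAs of the cluster other than Hoxa11os (Hotairm1, Hottip, Hoxaas2, Hoxaas3, Halr1 and Mira), 0 of 6 had a probe matched through RefSeq, so they were not analysed here.

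**Figure D4:**
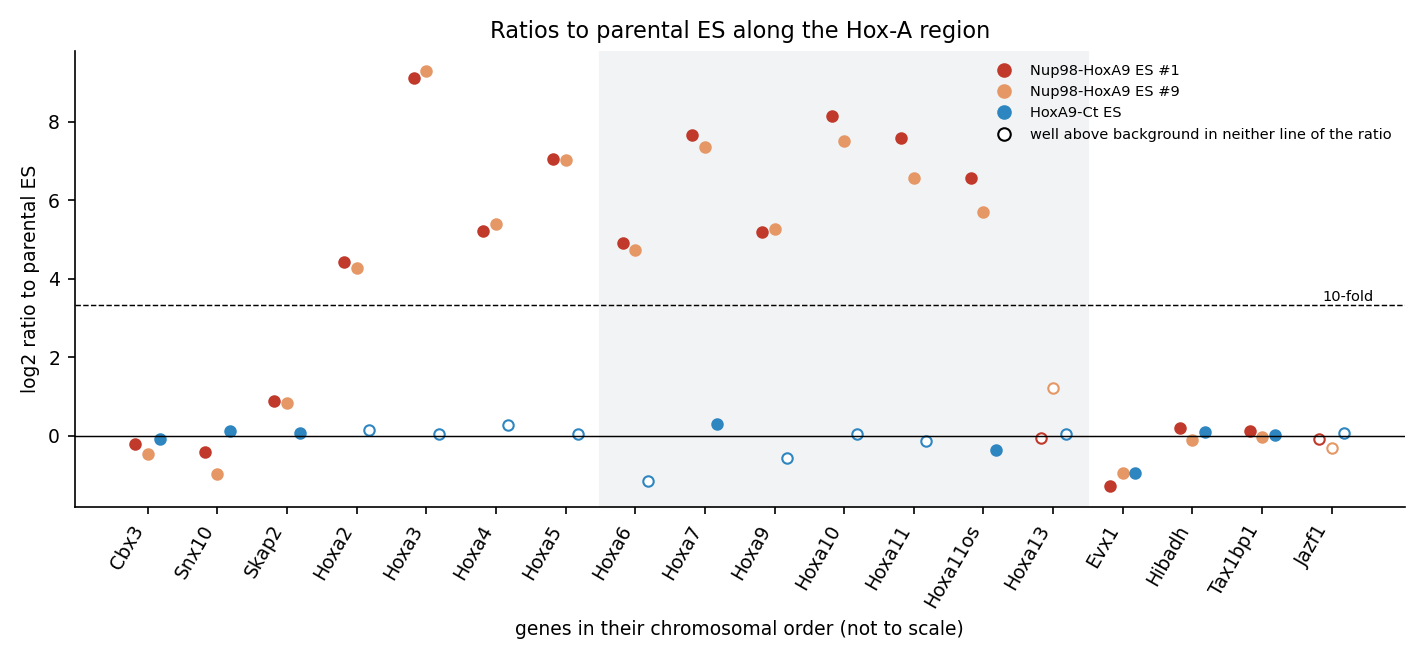
Log2 ratio of each line to parental ES for selected genes in chromosomal order, each at its brightest probe, with the members shaded and open points where neither line of a ratio is well above background. Hoxa2 to Hoxa11os lie above the dashed 10-fold line in both clones, Hoxa13 and the flanking genes do not, and HoxA9-Ct ES stays between -1.15 and 0.31 at the members. Ratios to a parental signal below background are measured values and not bounds.

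The paralogs of the members in the other clusters gave a mixed picture. In Hox-B, 3 of 4 genes were called higher by limma in the clones than in the parental line, and in Hox-C 2 of 5. The called genes Hoxb6, Hoxb7, Hoxb13, Hoxc6 and Hoxc9 were dim in parental ES. Hoxc6 was at least 71.4-fold higher in clone #1 and at least 12.4-fold in clone #9. For Hoxb7 the bounds were at least 18.6-fold and at least 7.56-fold, and the other called genes had bounds in the mean of the clones from at least 2.65-fold at Hoxb13 to at least 5.10-fold at Hoxb6. In Hox-D 0 of 4 were called, and Hoxd9, Hoxd10 and Hoxd11 were not well above background in any line. Among the members Hoxa10 and Hoxa11 rose, while their measured paralogs Hoxc10, Hoxc11, Hoxd10 and Hoxd11 were dim in every line. Against parental ES, 0 of the 13 paralogs were called in the HoxA9-Ct line.

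**Figure D5:**
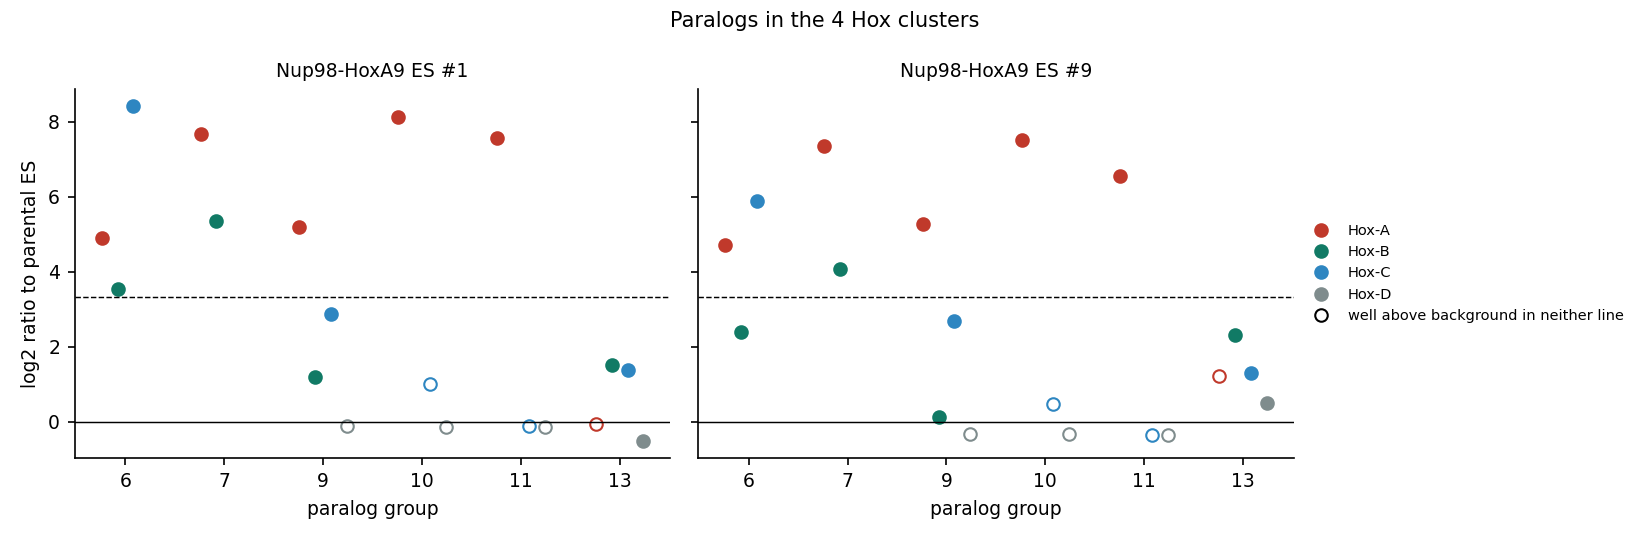
Log2 ratio to parental ES of Hox genes of the members' paralog groups in each Nup98-HoxA9 ES clone, coloured by cluster, with the dashed line at 10-fold and open points where neither line is well above background. Hox-A genes from Hoxa6 to Hoxa11 lie above the line in both clones, joined by Hoxb7 and Hoxc6, and by Hoxb6 in clone #1. Ratios to a dim parental signal are measured values, and the bounds of Hoxb6, and of Hoxb7 in clone #9, lie under 10-fold.

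By distance over the 3 ratios to parental ES, the non-member probe most like the median member was that of Hoxb8, a Hox-B gene whose product can keep blood progenitors growing, at 0.445 among 26864 probes that passed background in each clone. Its log2 ratios were 6.52 and 5.28 in clones #1 and #9 and 0.05 in the HoxA9-Ct line. Hoxa5 (1.43) and Hoxa4 (1.44) were also among the nearest 5, with 2 probes that RefSeq does not name. All 5 were dim in parental and HoxA9-Ct ES, so these distances rest in part on signals below background and give no firm order, and the ratios share the parental array.

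Hox proteins bind DNA with Pbx, Meis and Pknox cofactors. All 9 of the cofactor genes were well above background in every line, and 1, Pbx3, was called higher in Nup98-HoxA9 ES (6.80-fold, log2 ratios of 2.65 and 2.88, limma adjusted p of 1.58e-04). Meis1, the usual partner of Hoxa9 in leukaemia, had log2 ratios of 0.04 and 0.30. Of 9 measured regulators of the cluster 1 was called, Cdx2, an activator of posterior Hox genes, with a bound of at least 1.82-fold over parental ES and a limma adjusted p of 1.04e-05. Neither line without the fusion was well above background at Cdx2. Its scaled log2 signal was -6.49 in parental ES and -4.15 in HoxA9-Ct ES, beside -3.72 in clone #1 and -3.10 in clone #9. The Polycomb genes Ezh2, Eed and Suz12 had log2 ratios between -0.23 and 0.02, and 0 of these 3 were called. Kmt2a had no probe matched through RefSeq.

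Markers of other cell types moved with the members in part. Of 6 primitive endoderm markers, 6 were well above background in both clones, 5 in parental ES and 2 in HoxA9-Ct ES, and limma called 3 higher in Nup98-HoxA9 ES (Gata6, Sox17 and Pdgfra) and 1, Sox17, lower in the HoxA9-Ct line. Their scaled signals summed to 0.933 in the parental cells, 3.42 in clone #1, 4.29 in clone #9 and 0.308 in the HoxA9-Ct line. Of 5 trophoblast markers 1 (Cdx2, also among the regulators) was called higher, and their sum was 10.2, 11.4, 12.5 and 8.11 in the same order. Most of that sum was Tfap2c and Ascl2, neither of them called. Mesoderm and fibroblast markers gave 0 calls. The 5 fibroblast markers summed to 7.62 in the parental cells, 9.30 in clone #1, 17.4 in clone #9 and 10.5 in the HoxA9-Ct line. Thy1 made up most of this, with a scaled log2 signal of 2.89 in the parental cells and 4.06 in clone #9. Its difference between the clones, 0.88, lay inside the central 95% given for them. Col3a1 was well above background in the parental cells alone, and Postn in no line. Clone #9 minus clone #1 was 2.11 at Col1a1 and 1.91 at Col1a2 on the log2 scale. For the trophoblast markers Krt7 and Ascl2 it was 2.27 and 1.51. These values lay outside the central 95% given for the clones, and the part of these genes in the difference between the clones was not tested. Of 4 neural markers 1, Pax6, was called lower, well above background in parental and HoxA9-Ct ES but in neither clone. Of the 6 mesoderm and streak markers 3, Eomes, Tbx6 and Kdr, were well above background in every line. T and Mixl1, defining markers of the primitive streak, were not well above background in any line. The part of other cell types in the rise of the Hox-A genes was not tested, and in RNA of a whole culture fewer cells of a type and less RNA per cell cannot be told apart.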

How the data were processed

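The authors hybridized Cy3-labelled cRNA of the 4 lines to SurePrint G3 Mouse GE arrays (1 slide, 1 scan) and extracted the images with Agilent Feature Extraction 10.10.1.1. The deposited scanner files hold spot intensity as background-subtracted, detrended processed signal, and the authors' series matrix holds the same intensity times 1 constant per array.
Here each signal was divided by percentile 75 of the array's 59305 spots outside the controls and taken as log2, and spots of 1 probe were averaged, outlier spots left out, which gave 55562 probes measured on every array. Where parental ES was dim, a fold is a lower bound against the higher of the lowest signal well above background and the probe's own. Precision is limited by the number of arrays. Tests used lmFit and eBayes (limma 3.58.1, R 4.3.3, 3 groups), checked on simulated data. Counts were made in Python 3.11.15.
Symbols came from RefSeq accessions (26762 probes). Promoters are RefSeq's on GRCm38.p6, while probe positions were not given in the sources used here. For normexp (offset 50) the median spot signal was used in place of the planned mean.
All members, every probe, were named, and genes of each list (for most lists up to 5, with the flanking genes and noncoding RNAs listed in full and 1 listed gene not reported here); the members and lists were chosen with earlier results of these data known.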

Additional observations from a re-analysis of the deposited data

How the results depend on the processing

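The 7 member probes above 10-fold in both clones stayed 7 under the alternatives tried (scaling, outlier spots, series matrix, floor, thresholds of 5-fold and 20-fold, HoxA9-Ct ES as the reference), except normexp, which left 2. Leaving out either clone gave 7 to 7 probes, and a median of the member genes of 5.69 to 6.55. That median was 3.04 with normexp and 5.32 with signals floored at the lowest well above background. For HoxA9-Ct ES against parental ES it was 0.059 with normexp, -0.38 with quantile normalization and 0.042 with the floor. Limma called 0 member probes higher with quantile normalization and 0 with the filter on dim probes, and 7 under the other settings. Its prior degrees of freedom were 0.82 with quantile normalization and 2.18 with the filter, and infinite in the other fits. The Hoxa10 log2 ratio was 7.92 with quantile normalization, and 7.82 both with the filter and in the main fit. The part of the prior degrees of freedom in the lost calls was not tested. Among single probes, signs turned only at Hoxa13, below background: probe A_51_P303316 went to 0.13 with normexp and 0.045 with quantile normalization, and probe A_55_P1970075 to -0.25 with the floor and, without each clone in turn, from -0.060 to 1.22. Without its 2 spots in the last eighth of array rows, an alternative chosen after seeing the data, the Hoxa11 ratio was 7.19. Limma without either clone has no residual degrees of freedom and was not run. No paired analysis was possible because the lines compared have no more than 1 replicate number in common.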
